A study of Mus musculus with 32 samples.

Results

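Endoplasmic reticulum (ER) chaperones and the genes of the unfolded protein response were followed in the MC38 mouse tumor line and in a derivative resistant to anti-PD-1, an antibody against an inhibitory receptor of T cells. The 36 genes were taken by name from a table of 22329 genes: 10 chaperones and cofactors of the HSP70 and HSP90 type, 3 lectin chaperone and glycoprotein quality control genes, 5 disulfide isomerases and oxidoreductases, 5 genes of ER-associated degradation, 3 sensors and transcription factors, 7 subunits of the translocation channel and its associated TRAP complex, and 3 KDEL receptors. All 36 were found, and all 36 passed the filter on low values in each of the 5 comparisons below.

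Poly(A) RNA was sequenced from 13 subcutaneous tumors of the parental line and 12 of the resistant line, all grown in untreated C57BL6/J mice, and from 2 parental and 5 resistant cultures, also untreated. How resistance was obtained, whether the resistant line is 1 clone, and the age and sex of the mice are not given in the sources used here. Total RNA came from a Qiagen method with a DNase step, and KAPA RNA HyperPrep was the library kit. The labels do not say that the libraries came from separate cultures or animals, so the p-values reflect the scatter among these libraries alone, and that scatter may be technical. Tumor and culture libraries carry 2 different series of titles, so growth setting and title series cannot be told apart.

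Values are TPM, a gene's share of its library scaled by transcript length; the read depth behind them is unknown. Tubb5, a beta tubulin, was below 50% of the tumor median of 991 TPM in 6 tumors: 4 parental (replicates 2, 3, 7 and 8, 15.7 to 454 TPM) and 2 resistant (replicates 3 and 12, 341 and 404 TPM). Tubb5 was 671 to 1271 TPM in the other 9 parental tumors and 873 to 1306 TPM in the other 10 resistant tumors. The 4 low-Tubb5 parental tumors also had the highest GC index, the median log2 deviation from the tumor mean of GC-rich genes less that of GC-poor genes, at 0.57 to 0.83 against -0.27 to 0.27 in the other parental tumors. The label of a colon adenocarcinoma line was checked against 8 epithelial markers (Epcam, Cdh1, Krt8, Krt18, Krt19, Krt20, Cdx2, Vil1), whose summed level was 2.55 to 11.9 TPM in parental tumors, 1.49 to 6.63 TPM in resistant tumors, 2.62 and 5.17 TPM in parental cultures and 0.0473 to 0.309 TPM in resistant cultures. These defining markers were therefore low in every group.

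Secreted and membrane proteins enter the ER through the Sec61 channel and are folded there by BiP, the product of Hspa5, by the lectin chaperones calnexin and calreticulin, and by protein disulfide isomerases. When unfolded proteins gather, the sensors IRE1 (Ern1), ATF6 and PERK (Eif2ak3) signal to the nucleus: IRE1 splices the Xbp1 message, ATF6 is cleaved into a transcription factor, and PERK slows translation while favouring Atf4 and its target Ddit3. XBP1 and ATF6 act through ER stress response elements in the promoters of chaperone genes, and proteins that cannot be folded are sent out of the ER for degradation. A gene-level table reports neither Xbp1 splicing nor ATF6 cleavage.

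Promoters are shown because a shared promoter element is what links many of these genes in the textbook pathway. RefSeq windows on GRCm38.p6, from 250 bases before to 50 bases after the gene start, were matched for 30 of the 36 genes and searched on both strands. The element ERSE, CCAAT and CCACG with 9 bases between them, was in 8 of the 30 (26.7%): Hspa5, Hsp90b1, Dnajc3, Creld2, Calr, Canx, Pdia6 and Syvn1. Of all 27025 windows of this length, 37 (0.137%) held it. ERSE-II, ATTGG and CCACG with 1 base between them, was in 2 of the 30 (Dnajb11 and Herpud1) and in 12 windows in all (0.0444%). The core of the UPRE, TGACGTGG, was in 1 of the 30 (Kdelr3) and in 193 in all (0.714%). ERSE and ERSE-II share the CCACG end and the CCAAT box, which reads ATTGG on the other strand, and none of the 30 searched held both. Of 70 other genes of the pathway with a window, 1 held ERSE (Derl3), none held ERSE-II and 7 held the UPRE core. The windows below are 170 bases that end just before the gene start, 5′ to 3′ on the strand of the gene, with the 2 ends of the element in capitals. They lie at chr2:34771920-34772089 (+) for Hspa5, chr12:17266419-17266588 (+) for Pdia6, chr14:118937762-118937931 (+) for Dnajc3, chr8:84846932-84847101 (-) for Calr and chr8:94386259-94386428 (+) for Herpud1. Hspa5, Pdia6 and Dnajc3 carry ERSE in the direction of the gene, Calr carries it on the opposite strand, and Herpud1 carries ERSE-II.
Hspa5: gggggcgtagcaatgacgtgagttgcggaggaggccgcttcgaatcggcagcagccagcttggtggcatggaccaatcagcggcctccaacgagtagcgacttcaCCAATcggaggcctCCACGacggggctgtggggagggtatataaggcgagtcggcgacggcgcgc
Pdia6: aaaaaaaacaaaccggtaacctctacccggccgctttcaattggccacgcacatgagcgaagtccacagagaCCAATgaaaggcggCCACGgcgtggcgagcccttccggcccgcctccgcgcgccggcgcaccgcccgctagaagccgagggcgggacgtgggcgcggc
Dnajc3: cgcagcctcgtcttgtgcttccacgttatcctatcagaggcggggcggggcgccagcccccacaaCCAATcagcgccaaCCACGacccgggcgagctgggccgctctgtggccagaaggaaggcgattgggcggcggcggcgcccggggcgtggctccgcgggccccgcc
Calr: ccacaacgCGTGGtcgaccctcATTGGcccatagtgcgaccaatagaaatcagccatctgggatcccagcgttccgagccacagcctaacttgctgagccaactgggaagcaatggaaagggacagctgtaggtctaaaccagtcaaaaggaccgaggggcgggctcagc
Herpud1: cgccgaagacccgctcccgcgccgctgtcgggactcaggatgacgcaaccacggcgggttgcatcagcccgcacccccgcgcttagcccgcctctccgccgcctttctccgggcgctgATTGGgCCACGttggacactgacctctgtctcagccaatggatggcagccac

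The level of these genes per length differed widely. In the mean TPM of parental tumors the order was led by Calr (727), Pdia6 (606), Hsp90b1 (604), Pdia4 (554), P4hb (479) and Hspa5 (464), and ended with Dnajb9 (19.5), Atf6 (17.6) and Ern1 (14.9).

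Tumors were first compared with cultures of the same line, which asks how the genes differ between growth in the mouse and growth in vitro. In both lines more of the 36 genes were lower in tumors than higher. In the parental line 11 of the 36 genes fell and 0 rose, with limma on log2(TPM + 1), two-sided, at a Benjamini-Hochberg adjusted p below 0.05. At an unadjusted p below 0.05 the counts were 16 lower and 2 higher. Of all 14348 genes tested, 22.1% were called in parental tumors, 5.99% lower and 16.1% higher, so 30.6% of the 36 stood against a background that ran the other way. In the resistant line 18 of the 36 fell and 4 rose, where 50.3% of 12312 genes were called, 15.0% lower and 35.3% higher. The median log2 difference of the 36 was -0.53 in the parental line, where all genes tested had 0.21, and -0.31 in the resistant line, where all genes had 0.18. In bulk samples, fewer cells of a type and less RNA per cell cannot be told apart.

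These comparisons share no samples. In both, however, growth setting and title series cannot be told apart, and the tumors also held other cells. Genes lower in both numbered 10, which is 90.9% of the 11 called in the parental line and 55.6% of the 18 called in the resistant line: Hyou1, Dnajb11, Dnajc3, Manf, Creld2, Calr, Pdia3, Pdia6, Ssr2 and Ssr3. The log2 difference was below 0 in both lines for 24 of the 36. Neither overlap was counted over all genes tested, so neither is shown to be particular to the 36. With quantile normalization the median of all genes moved to -0.04 in the parental line and -0.10 in the resistant line, and the calls over all genes went from 2310 higher and 859 lower to 1622 and 1492, and from 4342 higher and 1847 lower to 2693 and 3470. The counts for the 36 were then 11 lower and 0 higher in the parental line, and 17 lower and 5 higher in the resistant line. Among the genes lower in both, Ssr2 lost its call in the parental line (-0.34, limma adjusted p = 0.14) and Calr in the resistant line (-0.17, adjusted p = 0.0891), as did Kdelr1 (-0.53, adjusted p = 0.0752).

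**Figure D1:**
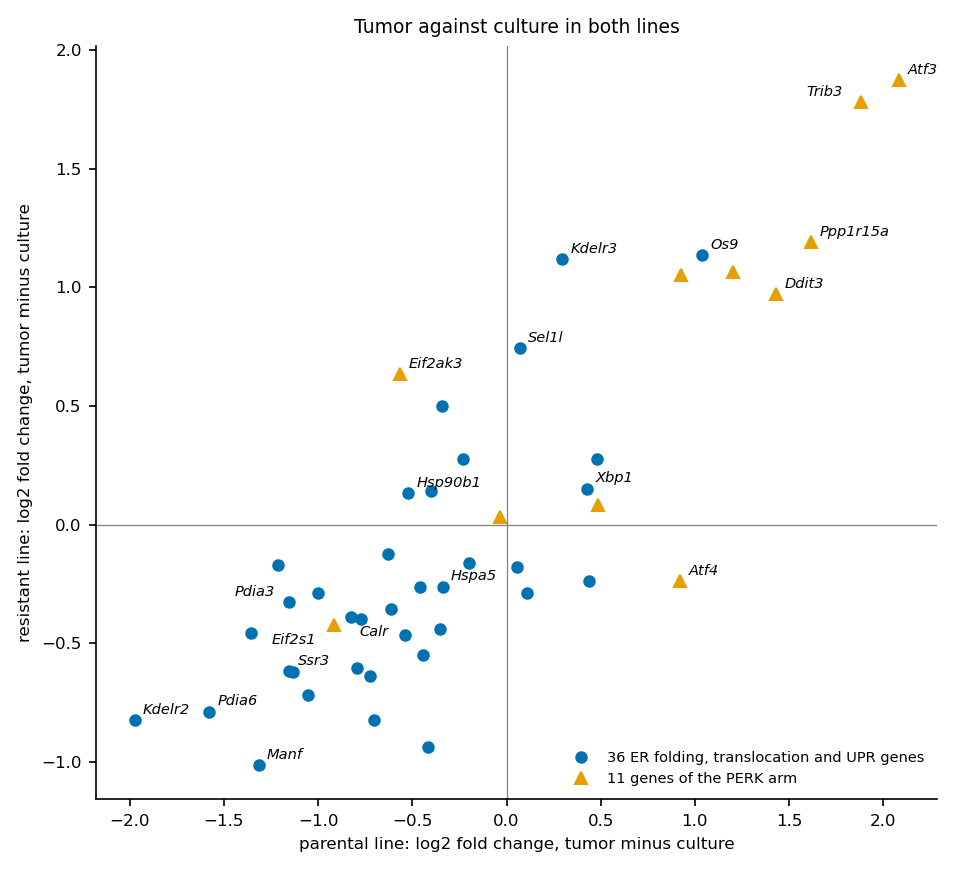
Log2 difference between tumor and culture in the parental line (horizontal axis) and the resistant line (vertical axis) for the 36 genes (circles) and 11 genes of the PERK arm (triangles), on the log2(TPM + 1) scale. Pdia6 and Manf lie low on both axes, while Atf3, Trib3 and Ddit3 lie high on both.

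Among the disulfide isomerases, Pdia6, which forms and reshuffles disulfide bonds and binds BiP, was 1336 and 2434 TPM in the 2 parental cultures and 492 to 699.8 TPM (median 617) in the 13 parental tumors. It fell by 1.58 on the log2 scale (SE 0.18, limma adjusted p = 4.06e-06). In the resistant line it was 1552, 1638, 1640, 1760 and 2003 TPM in culture and 809.7 to 1286 TPM (median 977) in tumors, a log2 difference of -0.79 (SE 0.11, limma adjusted p = 3.17e-06). Every tumor of each line lay below every culture of that line. Pdia3, the isomerase that works with calreticulin, was 838 and 1015 TPM in parental culture and 251.3 to 529 TPM (median 427) in parental tumors. It fell by 1.16 (SE 0.21, limma adjusted p = 0.000469), again with no overlap. Pdia4 fell in the parental line (-0.63) and was not called in the resistant line (-0.12, limma adjusted p = 0.263). P4hb, which also serves as a subunit of the collagen prolyl hydroxylase, and Erp44 were called in neither line.

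Of the 10 HSP70 and HSP90 chaperones and cofactors, 5 fell in the parental line and the same 5 in the resistant line: Hyou1, Dnajb11, Dnajc3, Manf and Creld2. Manf, an ER-resident protein that binds BiP, was 688 and 863 TPM in parental culture and 175 to 366 TPM (median 340.5) in parental tumors. It fell by 1.32 (SE 0.22, limma adjusted p = 0.000277). In the resistant line Manf was 646, 769.6, 770.4, 814 and 821 TPM in culture and 296 to 457 TPM (median 384) in tumors, a log2 difference of -1.01 (SE 0.10, limma adjusted p = 2.67e-08). All tumors of both lines were below all cultures. Hyou1, the nucleotide exchange factor of BiP, was 73.9 to 93.3 TPM in the 5 resistant cultures (73.9, 86.6, 89.9, 91.1 and 93.3) and 38.9 to 58.5 TPM (median 48.9) in resistant tumors, a log2 difference of -0.82 (SE 0.10, limma adjusted p = 5.14e-07). The groups did not overlap. Hspa5 itself was not called in either line, with log2 differences of -0.34 (SE 0.20, limma adjusted p = 0.245) and -0.26 (SE 0.13, adjusted p = 0.101).

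Of the 7 translocation genes all 7 fell in tumors of the resistant line, and 2 (Ssr2 and Ssr3) in the parental line. In 1 fit over all 32 libraries Sec61a1 (limma adjusted p = 0.164) and Ssr1 (0.315) were no longer called in the resistant line, nor were Kdelr1 (0.238) and Kdelr2 (0.324). Sec61b, a small subunit of the channel, was 97.3, 97.6, 139, 158 and 224 TPM in resistant culture and 48.7 to 118 TPM (median 67.3) in resistant tumors, a log2 difference of -0.94 (SE 0.22, limma adjusted p = 0.00118). The highest tumors reached into the range of the lowest cultures. Ssr3, a subunit of the TRAP complex that assists translocation, was 628 and 625 TPM in parental culture and 185 to 383 TPM (median 292) in parental tumors, a log2 difference of -1.15 (SE 0.23, limma adjusted p = 0.00137). No parental tumor reached a culture value. Kdelr2, a receptor that returns escaped ER proteins from the Golgi, was 175, 195, 225, 244 and 302 TPM in resistant culture and 46.3 to 202 TPM (median 140) in resistant tumors, with overlap, and fell by 0.82 (SE 0.29, limma adjusted p = 0.0245). In the parental line the Kdelr2 difference was -1.97 with an SE of 1.204 and was not called.

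The 4 genes that rose in resistant tumors were Os9, Kdelr3, Sel1l and Uggt1. Os9, a lectin that hands misfolded glycoproteins to the degradation machinery, was 19.7, 21.3, 21.7, 26.6 and 26.8 TPM in culture. In tumors it was 25.2 to 104 TPM (median 47.3), a log2 difference of 1.14 (SE 0.26, limma adjusted p = 0.00106), with overlap. Its 2 highest tumors, at 98.1 and 104 TPM, were the low-Tubb5 ones. Kdelr3 was 7.79, 9.33, 9.78, 10.2 and 14.6 TPM in culture and 15.3 to 29.5 TPM (median 25.1) in tumors, a difference of 1.12 (SE 0.16, limma adjusted p = 6.6e-06). Sel1l, the scaffold of the HRD1 ubiquitin ligase complex, was 13.7, 15.8, 16.9, 19.9 and 20.8 TPM in culture and 25.9 to 37.1 TPM (median 27.5) in tumors, a difference of 0.74 (SE 0.12, limma adjusted p = 2.2e-05). For Kdelr3 and Sel1l every tumor was above every culture. Uggt1, which puts a glucose back on misfolded glycoproteins so that they rebind calnexin, differed by 0.50 (SE 0.15, limma adjusted p = 0.0088). None of the 3 sensors and transcription factors was called by limma in either line; at an unadjusted p below 0.05 there was 1 in each, Xbp1 (0.43) in the parental line and Atf6 (0.28) in the resistant line.

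Genes whose groups did not overlap numbered 17 below and 1 above in the parental line (8.94% and 19.6% of all genes tested), and 7 below and 2 above in the resistant line (4.61% and 17.3%). The parental comparison rests on 2 cultures: without culture replicate 2 it held 5 calls in place of 11 (Hyou1, Dnajb11, Dnajc3, Calr, Pdia4 and Ssr2 were lost), without replicate 1 Hyou1 and Ssr2 were lost, and without the low-Tubb5 tumors it held 18 lower and 2 higher. Over all genes calls also became fewer when either parental culture was left out, and rose from 22.1% to 32.6% without the low-Tubb5 tumors. Ssr2, at a limma adjusted p of 0.0497, also lost its call without any 1 of 9 parental tumors. In the resistant line Kdelr1, Kdelr2, Sec61a1 and Ssr4 lost theirs without culture replicate 2. Kdelr1 and Kdelr2 lost theirs without culture replicate 3, and Kdelr1 also without culture replicate 4 or tumor replicates 3 or 11. Tumors also held other cells: Ptprc, a leukocyte gene, was 14.5 to 53.7 TPM in parental tumors, 19.7 to 50.3 TPM in resistant tumors and at most 0.147 TPM in culture, and their part in these differences was not tested. Of the 10 genes with ERSE or ERSE-II, 5 were lower in parental tumors and 6 in resistant tumors, with medians of -0.67 and -0.34; of the 20 genes with a window and neither element, 3 and 7 were lower, with medians of -0.41 and -0.17.

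Most of the 11 genes listed as the PERK arm moved in the other direction from the chaperones. In parental tumors 7 were higher (63.6%) and 1 lower, where 16.1% of all genes tested were higher. In resistant tumors 6 were higher (54.5%) and 1 lower, where 35.3% of all genes tested were higher. The medians were 0.93 and 0.97. The lower gene was Eif2s1 in both, named here after its values were seen. PERK activity was not measured, and the part of other cells in the tumors was not tested. Ddit3, the transcription factor CHOP, was 33.0 and 40.1 TPM in parental culture and 65.2 to 191 TPM (median 104) in parental tumors. It rose by 1.43 (SE 0.29, limma adjusted p = 0.00127) there and by 0.97 (SE 0.16, limma adjusted p = 2.81e-05) in the resistant line, and no tumor overlapped the cultures of its line. Trib3, a target of Atf4 and Ddit3, rose by 1.88 (SE 0.22, limma adjusted p = 4.7e-06) and 1.78 (SE 0.22, adjusted p = 1.08e-06). Atf4 was not called, with differences of 0.92 (limma adjusted p = 0.0776) and -0.24 (adjusted p = 0.224), nor was Eif2ak3, at -0.57 (limma adjusted p = 0.357) and 0.63 (adjusted p = 0.0551).

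Resistant tumors were then compared with parental tumors, the contrast named in the title of the series. The GC index was higher in parental tumors (mean 0.16, SD 0.40) than in resistant tumors (mean -0.19, SD 0.26), and mitochondrial transcripts took a mean of 7.19% (SD 2.01) and 10.01% (SD 2.68) of TPM; the part of either in what follows was not tested beyond the fit with the GC index as a covariate. Of the 36 genes 7 rose (Manf, Calr, Pdia3, Pdia4, Pdia6, Edem1, Ssr3) and 5 fell (Hyou1, Sdf2l1, Sel1l, Sec61b, Ssr2). That is 33.3% of the 36, where 30.2% of the 12095 genes tested were called (16.3% higher and 13.9% lower), so the share was near the background. The median log2 difference of the 36 was 0.01, and that of all genes 0.04. The calls were spread over both directions, and Pdia6 and Calr were the only genes of the 36 whose tumors did not overlap between lines, a pattern met by 0.496% of all genes tested (0.546% lay below without overlap).

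**Figure D2:**
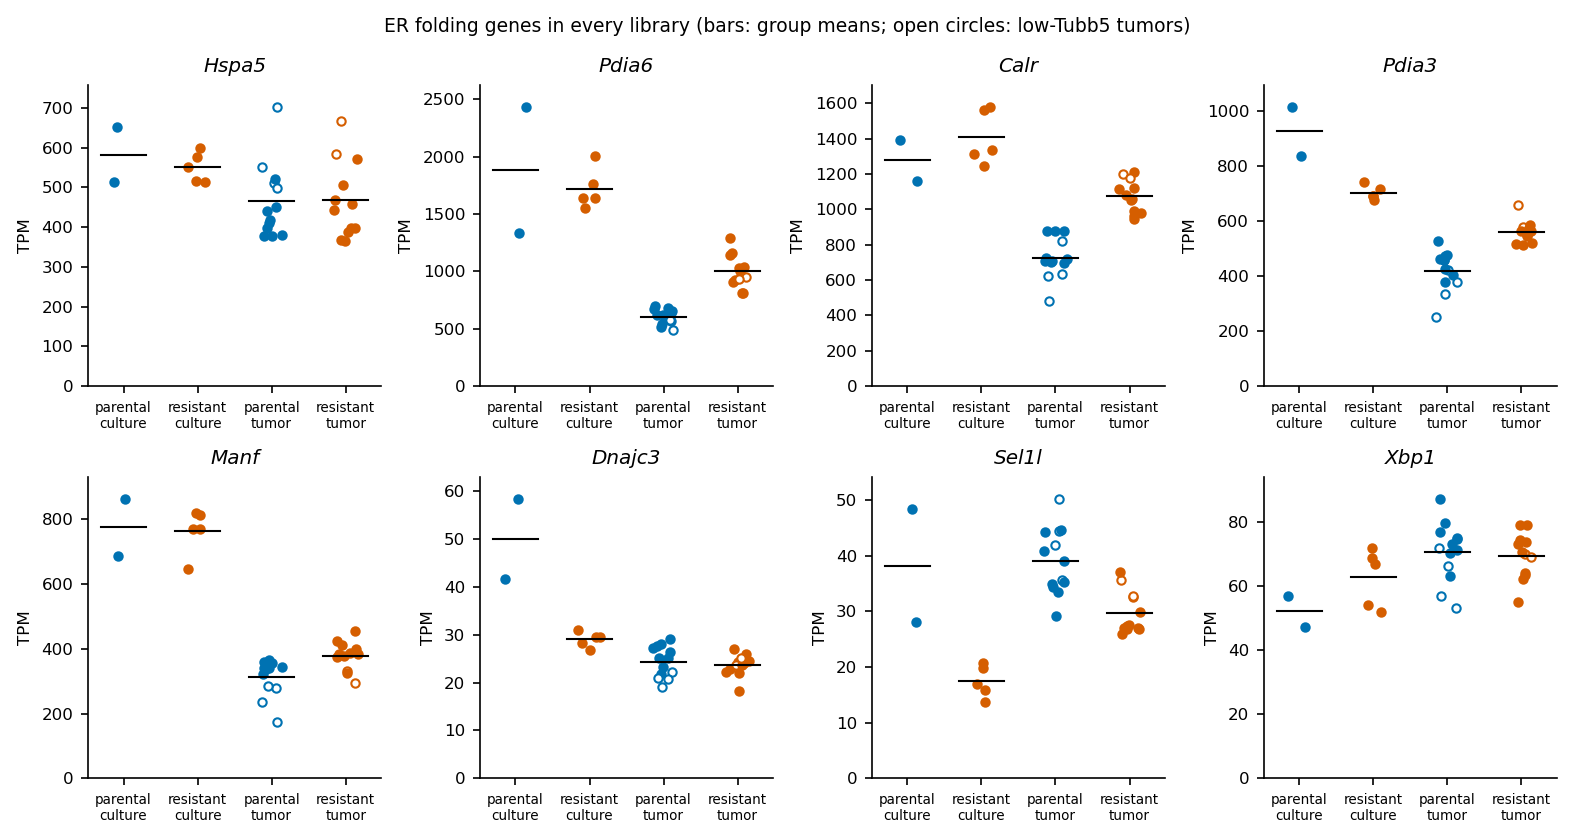
TPM of 8 genes in every library by group; each point is a library, bars are group means, and open circles are the 6 low-Tubb5 tumors. Pdia6 and Calr are higher in every resistant tumor than in any parental tumor, and Hspa5 overlaps in all groups.

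The disulfide isomerases held 3 of the rises and no fall. Pdia6 was 492 to 699.8 TPM (median 617) in parental tumors and 809.7 to 1286 TPM (median 977) in resistant tumors, 0.72 higher on the log2 scale (SE 0.08, limma adjusted p = 1.81e-07). Pdia3 was 251.3 to 529 TPM (median 427) in tumors of the parental line and 511 to 657 TPM (median 563.5) in resistant tumors, 0.44 higher (SE 0.09, limma adjusted p = 0.000453), with the lowest resistant tumors inside the parental range. Pdia4 was 476 to 639 TPM (median 544) and 625 to 935 TPM (median 717), 0.41 higher (SE 0.07, limma adjusted p = 6.74e-05), with a narrow overlap. P4hb (-0.09) and Erp44 (0.23) were not called; with the GC index as a covariate P4hb turned to 0.31 and was called by limma. Of the lectin chaperones, Calr, which also escorts MHC class I chains to the peptide loading complex, was 484 to 877 TPM (median 708) in tumors of the parental line and 949 to 1212 TPM (median 1068) in resistant tumors, 0.58 higher (SE 0.08, limma adjusted p = 8.42e-06). Its membrane-bound relative Canx was not called (-0.02, SE 0.18, limma adjusted p = 0.953).

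Hspa5, the usual readout of chaperone induction, was 378 to 702 TPM (median 441) in parental tumors and 365 to 667 TPM (median 449.6) in resistant tumors. The log2 difference was 0.01 (SE 0.11, limma adjusted p = 0.971), and the groups overlapped over nearly their whole range. Xbp1 was 53.1 to 87.0 TPM (median 71.6) and 55.03 to 78.9 TPM (median 70.2), a difference of -0.02 (SE 0.08, limma adjusted p = 0.868). Both groups again covered the same range. The other cofactors called were Sdf2l1, a partner of the J protein Dnajb11, Hyou1 (-0.25) and Manf (0.29). Sdf2l1 was 62.4 to 172 TPM (median 87.3) in tumors of the parental line and 38.7 to 99.1 TPM (median 62.3) in resistant tumors, a log2 difference of -0.55 (SE 0.15, limma adjusted p = 0.00601), with overlap. With the GC index as a covariate the Sdf2l1 difference was -0.23 (limma adjusted p = 0.0914), and that of Manf 0.09 (adjusted p = 0.403), where its own was 0.29 (SE 0.10, adjusted p = 0.0325). The Manf call also ended with no filter on low values (adjusted p = 0.0511), with median-of-ratios scaling (0.0605) and without parental tumor replicates 3 or 7 or resistant tumor replicates 5 or 8, at limma adjusted p-values of 0.0518 to 0.057.

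ER-associated degradation genes went both ways. Edem1, which extracts misfolded glycoproteins from the folding cycle, was 173 to 292 TPM (median 223) in tumors of the parental line and 239 to 380.4 TPM (median 292) in resistant tumors, 0.42 higher (SE 0.09, limma adjusted p = 0.000568). Sel1l was 29.2 to 50.2 TPM (median 39.1) and 25.9 to 37.1 TPM (median 27.5), a difference of -0.38 (SE 0.09, limma adjusted p = 0.00185). Both pairs of groups overlapped. Of the translocation genes, Ssr3 was 185 to 383 TPM (median 292) in tumors of the parental line and 267 to 542 TPM (median 429.5) in resistant tumors, 0.58 higher (SE 0.13, limma adjusted p = 0.00123). Another TRAP subunit, Ssr2, was 254 to 381 TPM (median 311) and 208 to 367 TPM (median 246), a difference of -0.30 (SE 0.09, limma adjusted p = 0.014). Sec61b was 76.3 to 143 TPM (median 105.5) and 48.7 to 118 TPM (median 67.3), a difference of -0.54 (SE 0.13, limma adjusted p = 0.00318). All 3 overlapped, so subunits of 1 complex differed in direction between the lines.

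**Figure D3:**
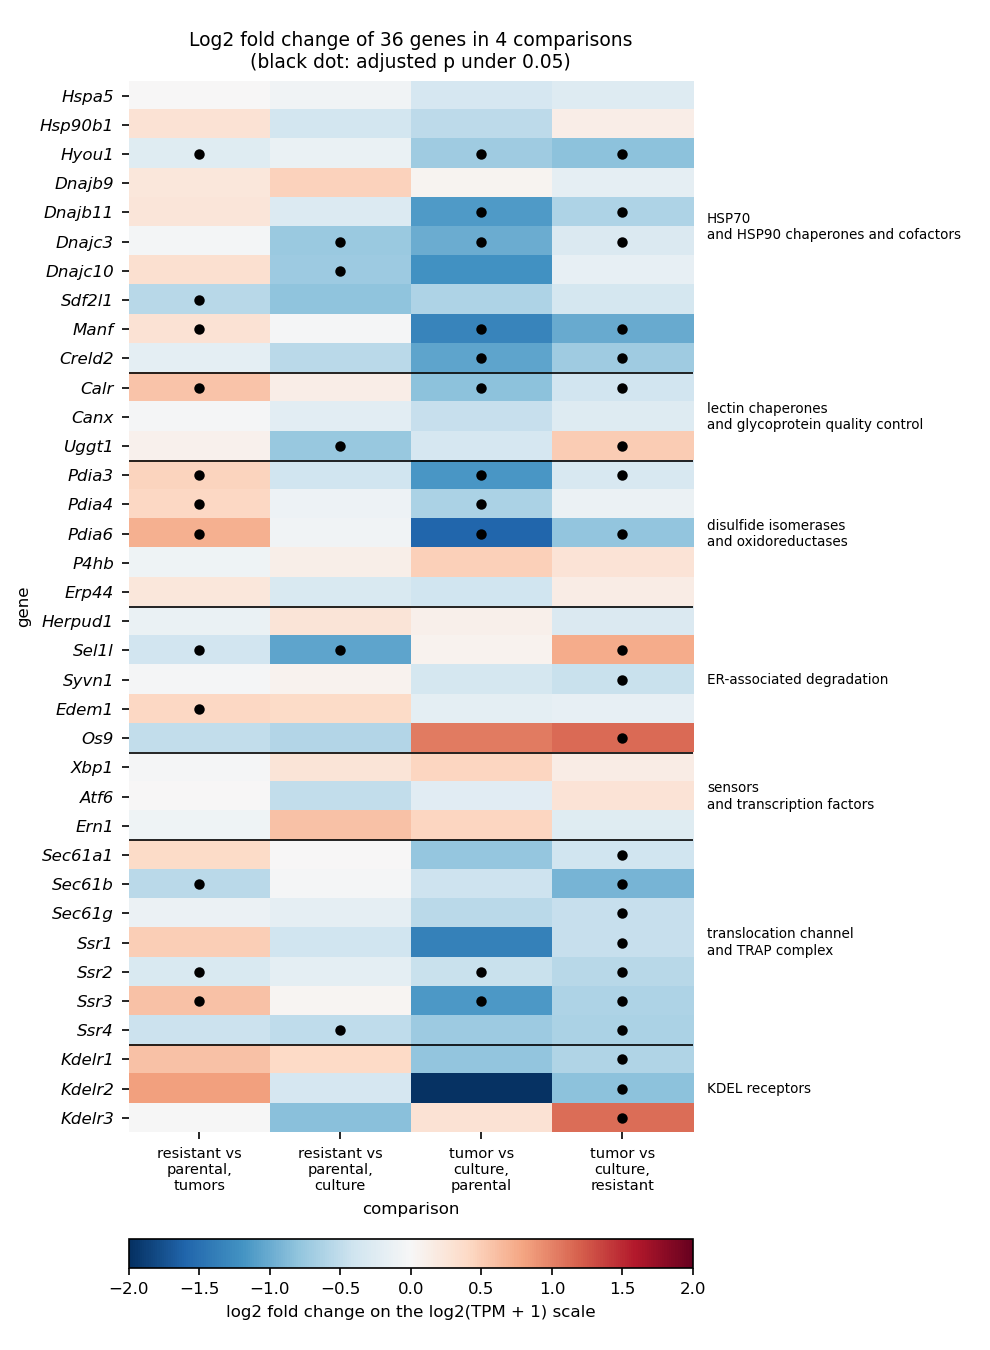
Log2 difference on the log2(TPM + 1) scale (colour) of the 36 genes (rows, by role) in 4 comparisons (columns), with a dot where the limma adjusted p was under 0.05. The tumor against culture columns are mostly blue, with 11 genes lower in the parental line and 18 in the resistant line; the column of resistant against parental tumors holds 7 higher and 5 lower.

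Without the low-Tubb5 tumors 8 of the 36 were higher and 5 lower in resistant tumors. Of all 12049 genes tested in that fit, 27.6% were called, 1689 higher and 1635 lower. The Ssr2 call ended at a limma adjusted p of 0.0502. With Ptprc as a covariate 15 were higher and 8 lower, and the share of all genes called rose as well, from 30.2% to 44.4%. Cell type markers differed between the lines as well: the summed level of 9 macrophage markers had a median of 758 TPM in the parental line and 351 TPM in the resistant line, that of 8 fibroblast markers 657.5 and 1708 TPM, that of 6 skeletal muscle markers 28.8 and 88.9 TPM, and that of 8 plasma and B cell markers 76.1 and 81.9 TPM. Most of this last sum was Sdc1 (48.2 to 109 and 58.1 to 127 TPM), which was also 33.7 to 57.9 TPM in culture. The B cell receptor genes Cd79a (3.12 to 15.1 and 0.344 to 2.94 TPM) and Cd79b (1.26 to 4.40 and 0 to 1.18 TPM) were lower in every resistant tumor than in any parental tumor, with log2 differences of -2.003 and -1.30 (limma adjusted p = 3.27e-08 and 4.41e-07). Macrophage markers summed to at most 2.56 TPM in culture, while fibroblast markers reached 838 TPM in resistant culture. Most of that sum was Dcn, at 211 to 791 TPM in resistant culture and 1.67 and 6.81 TPM in parental culture. The fibroblast sum therefore does not measure fibroblasts alone. Between the tumors of the 2 lines, 5 of the 8 fibroblast markers were called higher, and 2 had a log2 difference below 0. Of the 9 macrophage markers 7 were called lower and 1 higher. The higher one was Cd163, at 0.688 to 8.65 TPM in parental and 3.34 to 17.8 TPM in resistant tumors, a log2 difference of 1.07. The part of these cell types in the tumor differences was not tested.

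In culture, where leukocyte and macrophage markers were near 0, the resistant line was compared with the parental line. Of the 36 genes 5 fell and 0 rose (limma, adjusted p below 0.05; at an unadjusted p below 0.05, 13 were lower and 2 higher). That is 13.9% lower, where 14.2% of 11201 genes were called, 8.04% lower and 6.15% higher. Their median was -0.19 and that of all genes -0.01. Sel1l was 28.03 and 48.3 TPM in parental culture and 13.7, 15.8, 16.9, 19.9 and 20.8 TPM in resistant culture, a log2 difference of -1.05 (SE 0.24, limma adjusted p = 0.0207). Dnajc3, the J protein p58IPK that helps BiP, was 41.6 and 58.3 TPM against 26.8, 28.2, 29.5, 29.6 and 31.0 TPM, a difference of -0.75 (SE 0.17, limma adjusted p = 0.0181). Both genes were lower in every resistant culture. Uggt1 was 77.9 and 114 TPM against 44.3, 50.1, 56.99, 61.7 and 66.5 TPM, a difference of -0.76 (SE 0.20, limma adjusted p = 0.0367). Dnajc10, an ER reductase that acts on proteins bound for degradation, was 46.2 and 58.3 TPM against 25.3, 27.6, 33.8, 34.5 and 35.4 TPM, a difference of -0.72 (SE 0.18, limma adjusted p = 0.0312). Ssr4, the fourth TRAP subunit, was 210.0 and 215 TPM against 134, 136, 142, 155 and 181 TPM, a difference of -0.51 (SE 0.15, limma adjusted p = 0.045). None of these 3 overlapped either; 14 of the 36 lay below without overlap and 1 (Kdelr1) above, where 17.7% and 15.9% of all genes did. With 2 parental cultures these calls depended on single libraries: without parental culture replicate 2 none remained, without replicate 1 there were 3, and without resistant culture replicates 3, 4 or 5 there were 2, 3 and 2. Over all genes calls were fewer in each of these fits too, for example 9.75% without resistant culture replicate 3 in place of 14.2%. Ssr4 also lost its call without resistant culture replicate 1, and Uggt1 without replicate 2. Uggt1 (limma adjusted p = 0.0645) and Ssr4 (0.0561) were not called with no filter on low values, nor Dnajc10 (0.281) and Ssr4 (0.415) in 1 fit over all libraries.

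Whether the line difference itself depended on growth setting was tested as an interaction over all 32 libraries. It was called for 3 of the 36 (8.33%), all higher, where 4.01% of 15061 genes were called (2.4% higher and 1.61% lower); 10 were higher and 1 lower at an unadjusted p below 0.05. For Pdia3 the line difference was 0.44 in tumors and -0.39 in culture, and the difference between them was 0.83 (SE 0.19, limma adjusted p = 0.00705). For Pdia6 it was 0.72 in tumors and -0.075 in culture, an interaction of 0.79 (SE 0.20, limma adjusted p = 0.0155). Dnajc3 had -0.04 in tumors and -0.75 in culture, an interaction of 0.71 (SE 0.19, limma adjusted p = 0.0206). These 3 therefore had a smaller drop from culture to tumor in the resistant line. Over all genes, interaction calls became fewer when parental culture replicate 1 or replicate 2 was left out. The 3 calls depended on parental culture replicate 2, which held the highest value of all 3 genes (Pdia6 2434, Pdia3 1015 and Dnajc3 58.3 TPM). Without that library the interactions were 0.36 for Pdia6, 0.69 for Pdia3 and 0.47 for Dnajc3. Without resistant culture replicate 1 there were 5 calls, where 4.75% of all genes tested were called.

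Within the parental tumors, the low-Tubb5 libraries differed from the others in several of the 36. All 4 were below all 9 others for Dnajb11, Dnajc10, Manf, Canx, Atf6, Sec61a1, Ssr1, Ssr3, Kdelr1 and Kdelr2, and above all 9 others for Sdf2l1, P4hb and Syvn1. Kdelr2 was 1.96 to 48.5 TPM in the 4 and 72.1 to 214 TPM in the 9, a difference of -3.53 in mean log2. Kdelr1 (-2.06), Ssr1 (-1.93), Dnajc10 (-1.25), Sec61a1 (-1.17) and Canx (-1.05) were the other genes lower by at least 1. Os9 was higher by 1.13. The median over the 36 was -0.26, and over the genes tested -0.03. The share of all genes that split these libraries in the same way was not counted. The splits are therefore not shown to be particular to the 36. P4hb was 574 to 1117 TPM in the 4 and 329 to 478 TPM in the 9. Hspa5 was 498 to 702 TPM against 378 to 520.3 TPM, and Hsp90b1, the ER member of the HSP90 family, 685 to 958 TPM against 411 to 717 TPM, with a small overlap for each. In the 2 low-Tubb5 resistant tumors Kdelr2 was 46.3 and 50.8 TPM against 97.3 to 202 TPM in the other 10. Dnajb9, Canx, Atf6, Sec61a1, Ssr1, Ssr4 and Kdelr1 were also below all 10 others. Os9 was 98.1 and 104 TPM in the 2 against 25.2 to 76.1 TPM. Hspa5, Hsp90b1, P4hb, Herpud1 and Syvn1 were also above all 10 others. These splits follow Tubb5 and not a group of the study, so no test is given. For Kdelr1, Kdelr2, Ssr1 and Sec61a1 the line difference in tumors (0.59, 0.82, 0.50 and 0.39) was not called.

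**Figure D4:**
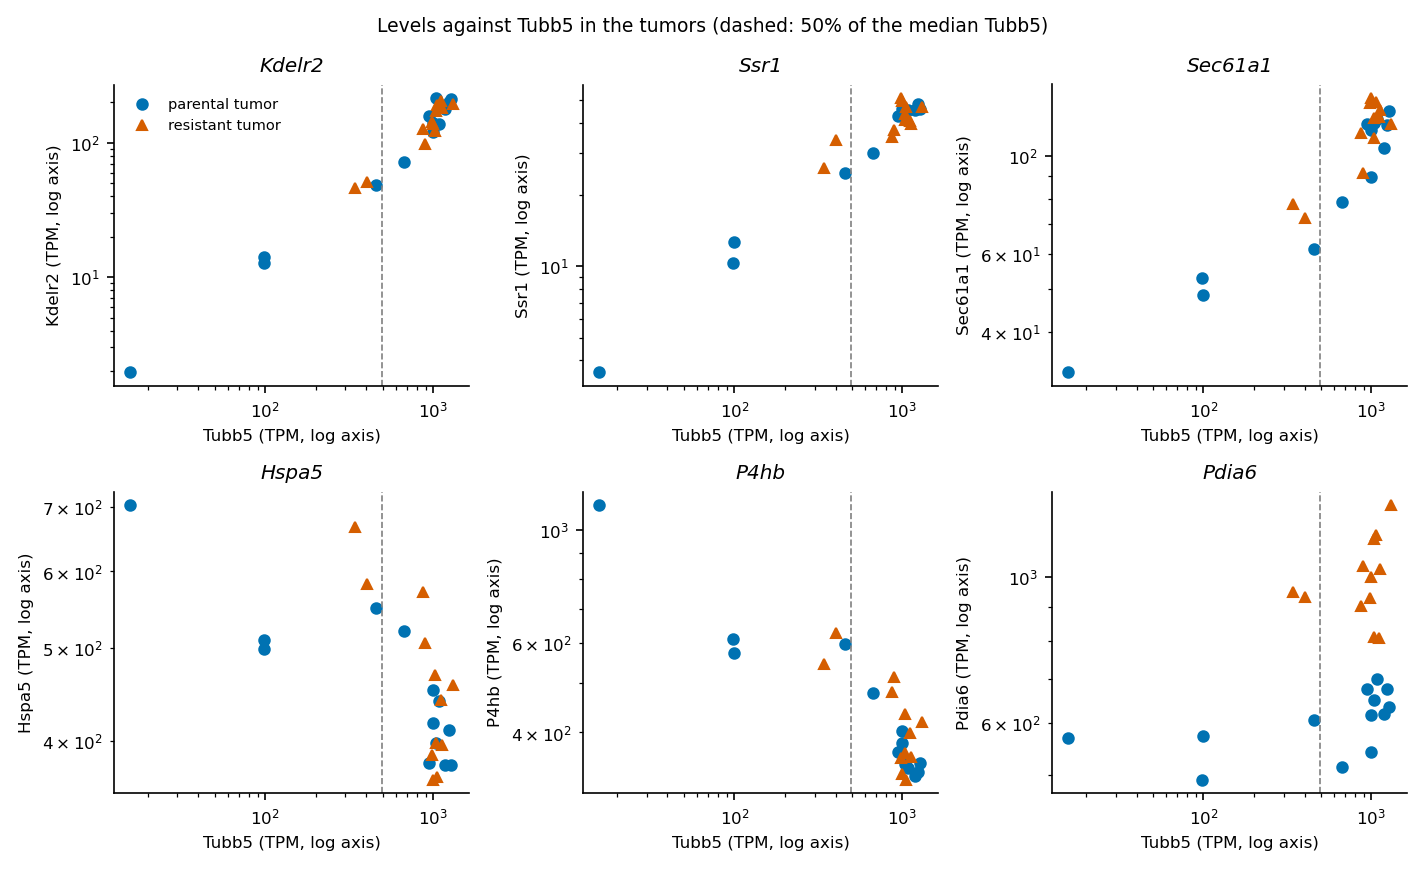
TPM of 6 genes (vertical, log axis) against Tubb5 (horizontal, log axis) in the 13 parental (circles) and 12 resistant (triangles) tumors; the dashed line is 50% of the tumor median of Tubb5. Kdelr2 runs from 1.96 TPM in the tumor with the lowest Tubb5 to 214 TPM, while Hspa5 and P4hb are highest in that tumor and Pdia6 separates the lines at every Tubb5 level.

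Across tumors of 1 line, Hspa5 was set against 4 genes, giving 8 relations on the log2 scale with permutation p-values adjusted over the 8. Hspa5 and Hsp90b1 rose and fell together in parental tumors (Pearson r = 0.948, permutation p = 1e-05, the smallest the resamples can give, adjusted 8e-05; Spearman rho = 0.918, p = 8e-05; n = 13) and in resistant tumors (r = 0.877, permutation p = 0.00032, adjusted 0.00128; rho = 0.804, p = 0.00279; n = 12). Without the 2 tumors farthest from the median of Hsp90b1, r was 0.949 and 0.798. It was 0.904 (n = 9) and 0.798 (n = 10) without the low-Tubb5 tumors, and 0.607 and 0.430 without 2 more. With only the low-Tubb5 tumors left out, the adjusted permutation p was 0.0096 and 0.0181 for r, and 0.0708 and 0.0753 for rho. With Xbp1, r was -0.386 in parental tumors (permutation p = 0.191, adjusted 0.218; rho = -0.154, p = 0.615) and 0.507 in resistant tumors (permutation p = 0.0931, adjusted 0.124; rho = 0.503, p = 0.0992). Without the low-Tubb5 tumors it was 0.824 (permutation p = 0.0068, adjusted 0.0181, n = 9) and 0.716 (permutation p = 0.0191, adjusted 0.0383, n = 10), so the sign in parental tumors rests on those libraries. By rank, rho was then 0.717 (permutation p = 0.0358, adjusted 0.0753) and 0.7455 (permutation p = 0.0177, adjusted 0.0708). Leaving out 2 more tumors gave r of 0.624 and 0.753. With the low-Tubb5 tumors kept, r without the 2 tumors farthest from the median of Xbp1 was 0.259 and 0.366. With Ddit3, r was 0.654 (permutation p = 0.0154, adjusted 0.0247; rho = 0.802, p = 0.00177) in parental and 0.374 (permutation p = 0.232, adjusted 0.232; rho = 0.462, p = 0.134) in resistant tumors, and 0.632 and 0.410 without the 2 farthest. Without the low-Tubb5 tumors it was 0.541 (permutation p = 0.13, adjusted 0.173, n = 9) and 0.4204 (permutation p = 0.229, adjusted 0.262, n = 10), and in the 9 parental tumors 0.198 without 2 more. With Tubb5, r was -0.849 in parental tumors (permutation p = 0.00085, adjusted 0.00227; rho = -0.802, p = 0.00173) and -0.676 without the 2 farthest. The low-Tubb5 tumors stand apart on this axis, and within the 9 others r was -0.768 (permutation p = 0.0241, adjusted 0.0386; rho = -0.550, p = 0.131), or -0.126 without 2 more. In resistant tumors r with Tubb5 was -0.771 (permutation p = 0.00263, adjusted 0.00526; rho = -0.587, p = 0.0484) and -0.347 without the 2 farthest, so in the resistant line the relation rests on that pair of tumors.

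Of 85 other genes of the pathway, 83 were tested in tumors, and 18 were higher and 10 lower in the resistant line, with a median of 0.16; that is 33.7%, near the 30.2% of all genes. In the PERK arm 2 of 11 were higher and 4 lower. Trib3 was 108 to 223 TPM (median 192) in tumors of the parental line and 66.7 to 195 TPM (median 115) in resistant tumors, a difference of -0.75 (SE 0.14, limma adjusted p = 0.000278), and Atf3, another stress transcription factor, differed by -0.75 (SE 0.16, limma adjusted p = 0.000892). Eif2ak3, which encodes PERK, was 13.1 to 53.6 TPM (median 26.8) and 25.2 to 67.3 TPM (median 43.3), a difference of 0.72 (SE 0.21, limma adjusted p = 0.0104). Ddit3 (-0.09, limma adjusted p = 0.687) and Atf4 (-0.38, adjusted p = 0.104) were not called. Among 9 other regulators tested, 4 were higher and 1 lower: Mbtps1, the protease that cleaves ATF6, differed by 0.49, and the ATF6 relatives Creb3l2 and Creb3l1 by 0.53 and 0.84.

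Of 8 other disulfide enzymes 3 were called, all higher (37.5%, where 30.2% of all genes were called). Ero1l, the oxidase that recharges protein disulfide isomerase, was 59.3 to 232 TPM (median 115) in tumors of the parental line. In resistant tumors it was 112 to 411 TPM (median 214), 0.81 higher (SE 0.21, limma adjusted p = 0.00492). Tmx3 and Tmx1 were 0.54 and 0.33 higher. In transport from the ER to the Golgi 6 of 14 were higher and 2 lower (57.1% called). Lman1, a cargo receptor for glycoproteins, was 71.3 to 104.9 TPM (median 88.4) in tumors of the parental line and 105.1 to 196 TPM (median 126) in resistant tumors, 0.59 higher (SE 0.09, limma adjusted p = 1.08e-05), and every resistant tumor was above every parental tumor. Its partner Mcfd2 differed by -0.45 and the COPII coat GTPase Sar1a by 0.54. Of 11 other degradation genes tested 1 was called (Vcp, 0.30 higher), of 9 oligosaccharyltransferase genes 1 was higher (Rpn1, 0.31) and 1 lower (Ost4, -0.44), and of 10 further translocation genes 0 were called by limma (1 at an unadjusted p below 0.05). Collagen folding genes held 1 higher (Plod1, 0.42) and 2 lower (Crtap, -0.46, and Fkbp10, -0.45) of 11. Cytosolic and mitochondrial chaperones held 5 called of 15 (33.3%, near the 30.2% of all genes). All 5 were higher, among them Hsph1 (0.59), Hsp90aa1 (0.53) and Hspa8 (0.29).

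From culture to tumor the other pathway genes had calls in both directions. Of the 84 tested in the parental line 13 were higher and 6 lower (median -0.08), and of the 83 in the resistant line 23 were higher and 18 lower (median -0.01). These shares of 22.6% and 49.4% were close to the 22.1% and 50.3% of all genes. Collagen folding genes, which act in collagen-producing cells such as fibroblasts, were called in 3 of 11 in the parental and 8 of 11 in the resistant line, all higher. The summed fibroblast markers came to 259.6 to 1534 TPM across parental tumors, against 75.0 and 121 TPM in culture of that line. In the resistant line they were 718 to 2143 TPM in tumors and 264 to 838 TPM in culture, with overlap. Most of the sum in resistant culture was Dcn, at 211 to 791 TPM. The part of fibroblasts in the collagen folding calls was not tested. Further translocation genes were called in 0 of 10 in the parental line (4 at an unadjusted p below 0.05) and in 5 of 10, all lower, in the resistant line. Of the other degradation genes, 0 of 12 were called in the parental line (1 at an unadjusted p below 0.05), and 5 of 11 were lower and 1 higher in the resistant line by limma.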

How the data were processed

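Poly(A) RNA-seq values of 32 libraries were used. The authors deposited 1 table of TPM by mouse gene symbol; per the submitters' processing notes, STAR and GRCh38 were used in a way and version not stated. That build is human, while 98.4% of the symbols are in GENCODE mouse release M21. The quantifier and annotation are not given in the sources used here. Columns sum to 1000000, and depth is unknown, so precision rests on the spread between libraries. The 36 genes, the other lists and the tests were chosen with earlier results of these data known.

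The libraries of each comparison, or all 32 for the interaction, entered a limma fit (3.58.1, R 4.3.3) of log2(TPM + 1) with an intensity trend. Two-sided p-values were adjusted by Benjamini-Hochberg across every gene at 1 TPM or more in a number of libraries equal to the smaller group. Differences (resistant minus parental, tumor minus culture) understate changes of low genes. Values were printed for up to 10 called genes with the largest difference in tumors, plus Hspa5 and Xbp1, up to 6 in culture and the interaction, up to 4 per direction and line in tumor against culture, and up to 3 per other list by adjusted p. The GC index used 10046 genes above 5 TPM, with transcript GC over 0.55 (2515) or under 0.42 (756). Correlations used 100000 resamples (scipy 1.17.1). The fits were tested on simulated data. Alternatives were another pseudocount, filter, scaling, moderation, test and joint fit, covariates for Tubb5, GC index and Ptprc, and leaving out low-Tubb5 tumors or each library.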

Additional observations from a re-analysis of the deposited data

Results flagged for a closer look

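Resistant culture libraries set 1 of their 5 values apart from the other 4 in 3 of the 36 groups tested; chance gives about 1 in 20. Manf was 646.0 TPM in replicate 4 and 769.6 to 820.7 TPM in the others. Erp44 was 106.0 TPM in replicate 1, with the others at 59.98 to 65.31 TPM. Syvn1 was 64.09 TPM in replicate 1 and 88.66 to 93.68 TPM elsewhere.

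The line difference in tumors exceeded that in culture for Dnajc3 by 0.71, for Pdia3 by 0.83 and for Pdia6 by 0.79 on the log2 scale, by limma's interaction test; all 3 calls ended without parental culture replicate 2.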

How the results depend on the processing

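Over the 36 genes and 5 comparisons, 4834 of 4968 results under an alternative stayed on their side of the threshold. Of these, 116 turned sign with no call in either fit, and the others kept their direction. A call was lost in 68, gained in 63 with the same sign and gained with the sign turned in 3: with the GC index as a covariate, the tumor differences of P4hb, Syvn1 and Atf6 were 0.31, 0.31 and -0.27. Called genes numbered 23 in place of 12 in tumors with Ptprc as a covariate (44.4% in place of 30.2% over all genes). With no filter, culture held 3 in place of 5 (8.87% in place of 14.2% over all genes). Parental tumors against culture held 20 in place of 11 without the low-Tubb5 tumors (32.6% in place of 22.1% over all genes). The cause of these changes was not tested. Leaving out each library gave 11 to 13 calls in tumors, 0 to 5 in culture, 0 to 6 for the interaction, 5 to 12 in parental and 18 to 24 in resistant tumors against culture; with 1 parental culture left, that sample is assumed to vary like the other group. Without the low-Tubb5 tumors, r of Hspa5 with Xbp1 turned to 0.82 in parental tumors and was 0.72 in resistant tumors, r with Ddit3 in parental tumors was 0.54 (adjusted permutation p = 0.173), and r with Tubb5 in resistant tumors was -0.35 (adjusted permutation p = 0.33). No paired analysis was possible because the labels give no replicate numbers. Read depth is unknown and sets no limit that can be stated.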
